A study of Mus musculus with 6 samples.

Results

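Polycomb repressive complexes are groups of proteins that keep developmental genes silent through marks on histones. Polycomb repressive complex 2 (PRC2) methylates lysine 27 of histone H3 through EZH2 or its paralog EZH1, with EED and SUZ12 as the other core subunits and JARID2, MTF2 or PHF19 as accessory subunits that help to place it on chromatin. PRC1 adds ubiquitin to histone H2A through RING1B (gene Rnf2) or RING1A (gene Ring1), and a chromobox protein such as CBX7 reads the PRC2 mark. In embryonic stem (ES) cells these complexes occupy the CpG-rich promoters of lineage regulators, the Hox clusters among them. The 10 genes described here were listed by name for these roles, 4 of the PRC2 core (Ezh1, Ezh2, Eed, Suz12), 3 accessory PRC2 genes (Jarid2, Mtf2, Phf19) and 3 of PRC1 (Rnf2, Ring1, Cbx7). All 10 were found among the 23951 genes of the authors' deposited table, and all 10 were tested there.

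The samples were mouse ES cells of the TT2 line, derived from a C57BL6 x CBA cross, cultured without feeders and used at passage 5. Wild-type (WT) cells gave 2 libraries, and cells with a knockout (KO) of the dioxygenase gene Alkbh1 gave 4, from 2 clones with 2 libraries each. Each gene has 1 FPKM value per condition (a read-pair count per kilobase of transcript, divided by the size of the library), with the authors' fold change, p and q, so levels carry no SD, clones cannot be compared, depth is unknown, and a genotype effect cannot be told apart from a difference between cell clones. The labels do not say whether libraries came from separate cultures, so each q may rest on technical spread alone. Alkbh1 itself had 33.9 (WT) and 18.1 FPKM (KO) per the authors' deposited table, lower but not called (log2 fold change -0.90, q = 0.0943), and its row overlaps other genes. All 10 ES cell markers examined lay above 10 FPKM in both conditions, from 39.5 to 3753 FPKM in WT per the authors' deposited table. Of 10 markers of fibroblasts, the usual feeders, 8 lay below 1 FPKM in both conditions and Fap was listed at 0 in both. Per the authors' deposited table the 10 summed to 59.03 (WT) and 97.4 FPKM (KO), of which Fn1 alone gave 51.9 and 86.4 FPKM. The 4 fibroblast markers that were tested were called higher in KO, as were 22.4% of all tested genes, and their part in the results was not tested. Of the 9 tested ES cell markers 7 were called lower, a share near the 77.2% of genes called lower in the highest decile by mean FPKM.

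The promoters of the 4 PRC2 core genes are shown first, because these genes differed in direction between the conditions. Each window runs from 250 bases before to 50 bases after a transcription start, from RefSeq on GRCm38.p6, a later build than the mm9 of the expression table. Capitals mark words that resemble the binding motif of E2F factors, regulators of S-phase genes (TTTGGCGC, TTTCCCGC, TTTCGCGC or TTTGGGCGC, on either strand).

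Ezh2 (chr6:47594981-47595280, minus strand): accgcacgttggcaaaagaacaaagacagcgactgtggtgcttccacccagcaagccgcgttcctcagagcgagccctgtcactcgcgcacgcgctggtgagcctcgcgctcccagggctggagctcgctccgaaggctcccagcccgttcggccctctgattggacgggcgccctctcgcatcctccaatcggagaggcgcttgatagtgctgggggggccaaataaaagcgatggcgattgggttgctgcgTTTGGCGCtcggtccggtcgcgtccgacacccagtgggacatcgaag
Eed (chr7:89980927-89981226, minus strand): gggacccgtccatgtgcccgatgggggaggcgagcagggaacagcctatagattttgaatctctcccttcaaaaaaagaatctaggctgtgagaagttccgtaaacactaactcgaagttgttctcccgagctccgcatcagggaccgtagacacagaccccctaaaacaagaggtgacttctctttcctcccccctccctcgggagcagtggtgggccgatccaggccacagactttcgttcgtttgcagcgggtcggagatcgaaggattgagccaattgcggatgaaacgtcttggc
Suz12 (chr11:79992856-79993155, plus strand): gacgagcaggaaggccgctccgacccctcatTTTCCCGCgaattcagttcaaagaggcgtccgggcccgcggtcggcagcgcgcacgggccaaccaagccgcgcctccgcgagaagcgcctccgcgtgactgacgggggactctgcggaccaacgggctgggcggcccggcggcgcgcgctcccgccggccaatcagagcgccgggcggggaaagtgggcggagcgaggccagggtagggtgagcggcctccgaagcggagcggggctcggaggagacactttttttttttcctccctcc
Ezh1 (chr11:101226414-101226713, minus strand): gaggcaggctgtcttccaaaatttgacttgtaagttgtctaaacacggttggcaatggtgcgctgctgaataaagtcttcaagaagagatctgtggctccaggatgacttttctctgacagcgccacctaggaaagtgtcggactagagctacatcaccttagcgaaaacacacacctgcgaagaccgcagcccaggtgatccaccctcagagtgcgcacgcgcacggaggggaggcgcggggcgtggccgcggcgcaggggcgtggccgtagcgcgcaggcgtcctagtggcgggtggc

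Of the 12 windows that RefSeq gives for the 10 genes, 3 held such a word, in Ezh2, Suz12 and Phf19. Among all 32851 windows of the same length, 1.95% held one. Each of these words contains a CpG, and the share among windows of like CpG content was not computed. The genes with a word were not called alike: Ezh2 was called lower in KO and Suz12 and Phf19 were not called. The windows of the 10 genes were rich in CpG, with a median of 30 CpG dinucleotides against 7 over all windows, and a ratio of observed to expected CpG of 0.896 against 0.384. Eed had the fewest CpG among the 4 windows shown, 17, and Suz12 the most, 41.

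Among the 10 genes, Eed, Ezh2 and Rnf2 were called lower in KO and Ezh1 higher, while Suz12, Jarid2, Mtf2, Phf19, Ring1 and Cbx7 were not called. A call is a deposited q under 0.05. The 4 calls stand beside 50.8% of all 14095 tested genes, and by direction the 1 higher and 3 lower stand beside 22.4% and 28.4% of tested genes. The share called was thus not above that of the table as a whole. The median log2 fold change of the 10 was -0.16, beside -0.06 over all tested genes.

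Fold changes in this table fall with expression level, and this touches most of the 10. In the highest decile by mean FPKM, which starts at 76.1 FPKM and holds Ezh2, Eed, Suz12, Jarid2 and Mtf2, the median log2 fold change was -0.72 per the authors' deposited table, with 77.2% of genes called lower and 1.57% higher. The FPKM of all tested genes summed to 63.6% of the WT total in KO, and setting the totals equal would raise each log2 fold change by 0.65, the median of all tested genes then being 0.59. Under equal totals Ezh1 remained higher (1.33) and Eed lower (-0.37), while Ezh2 and Rnf2 turned to 0.09 and 0.18. Which scaling is right for these libraries was not tested, so ratios between subunits within a condition, in which a single factor cancels, are given beside the fold changes. The trend with level cancels in such a ratio only for genes of like level, such as the 5 in the highest decile.

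**Figure D1:**
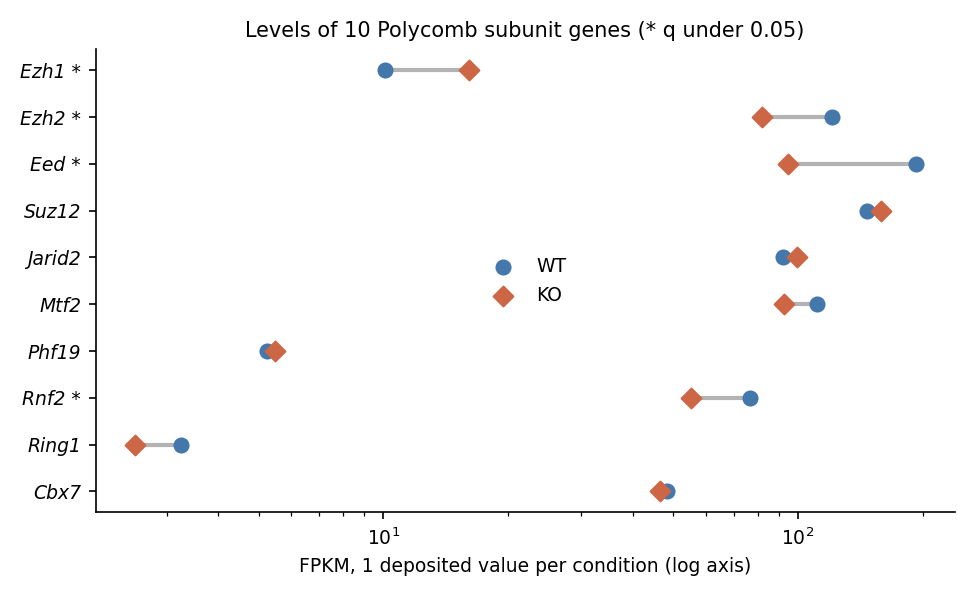
Levels of the 10 genes on a log axis of FPKM, with 1 deposited value for WT (circles) and 1 for KO (diamonds), and asterisks for q under 0.05. Eed moves furthest, from 192 to 94.4 FPKM, and Ezh1 moves the other way, from 10.1 to 16.1 FPKM.

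Of the PRC2 enzymes, EZH2 is the main methyltransferase of dividing cells, and EZH1 is a less active form that is common in resting cells. Ezh2 (chromosome 6, 47480272 to 47545029, mm9) fell from 121.0 to 82.0 FPKM per the authors' deposited table, to 67.7% of WT (log2 fold change -0.56, q = 0.000206), a direction that flips under equal totals and against genes of its level (0.16). Ezh1 (chromosome 11, 101052428 to 101087764, mm9) rose from 10.1 to 16.1 FPKM per the authors' deposited table, 1.59-fold (log2 fold change 0.67, q = 0.000206). Ezh1 was higher under each scaling tried, and 5.13% of genes in its level decile had a larger fold change. As a share of the summed FPKM of both enzymes, Ezh1 made up 7.69% in WT and 16.4% in KO. The ratio of Ezh2 to Ezh1 thereby went from 12.0 to 5.10, but the genes lie in level deciles 10 and 7, and the difference between their log2 fold changes, 1.24, was 0.67 after each decile's median was taken away.

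EED binds the methyl mark and stimulates the enzyme, and SUZ12 holds the core together. Eed (chromosome 7, 97103163 to 97129486, mm9) fell from 192 to 94.4 FPKM per the authors' deposited table, to 49.1% of WT (log2 fold change -1.03, q = 0.000206). It was the most abundant of the 10 in WT and the third in KO, and it stayed below genes of its level (-0.31), of which 19.4% lay lower still. Suz12 (chromosome 11, 79806607 to 79847625, mm9) stood at 146.8 (WT) and 158 FPKM (KO) per the authors' deposited table, was not called (log2 fold change 0.11, q = 0.579), and ranked first of the 10 in KO. Among genes of its level, 4.13% had a larger fold change than Suz12. The ratio of Eed to Suz12 was 1.31 in WT and 0.596 in KO, and that of Ezh2 to Suz12 was 0.824 and 0.518.

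No library has a value of its own, but the deposited p gives a view of the error. If p is read as a two-sided normal p of the fold change over its standard error (SE), Suz12 has an SE of 0.15 on the log2 scale and a 95% interval from -0.19 to 0.41. For genes at the smallest p of the authors' deposited table, 5e-05, this reading gives only an upper bound. It is 0.25 for Eed, 0.14 for Ezh2 and 0.17 for Ezh1. With errors taken as independent, the fold changes of Suz12 and Eed differed by 1.13 on the log2 scale with an SE of at most 0.30, and those of Ezh1 and Ezh2 by 1.24 with an SE of at most 0.22. On this reading, these differences are at least 3.83 and 5.71 times their SE, the latter at least 3.09 times after centring on level. That of Suz12 and Ezh2, 0.67, is then at least 3.24 times its SE. Ezh2 and Eed differed from each other by 0.46, with an interval from -0.10 to 1.03 at the largest SE this reading allows. Under the deposited statistic, read as fold change over SE, the SEs of Suz12, Ezh1 and Ezh2 are larger. The multiples above are then not lower bounds but would be smaller, and they were not computed from that statistic. The normal quantile of p was a median of 1.64 times that statistic over the genes checked.

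**Figure D2:**
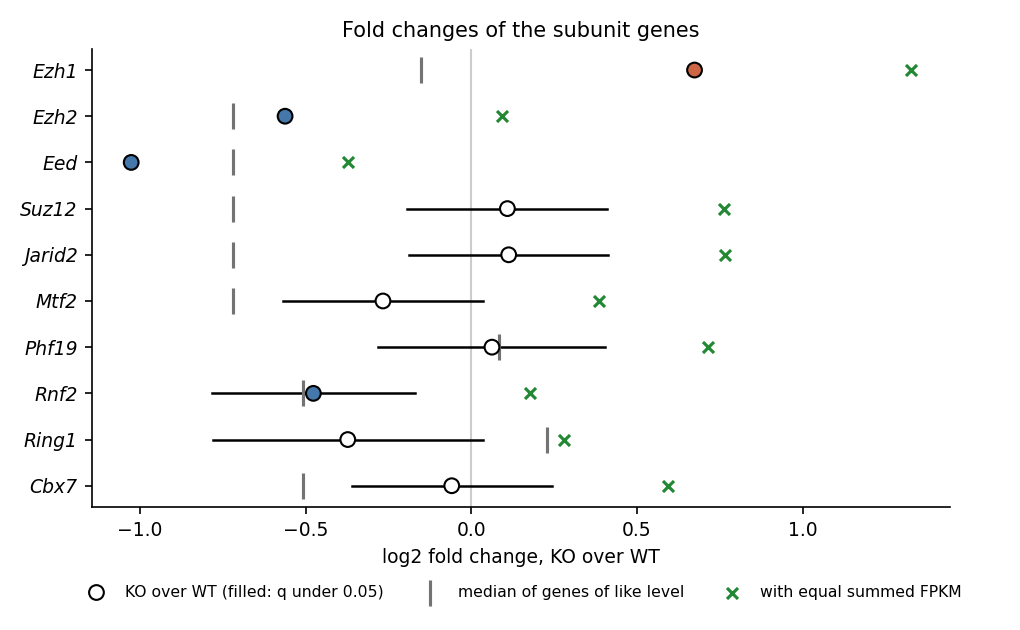
Log2 fold change of KO over WT for each gene (circles, filled where q was under 0.05), with 95% intervals read from the deposited p where it lies above its smallest value, the median of the gene's level decile (grey ticks) and the fold change under equal totals (crosses). Ezh1 lies right of 0 and Eed left of it on both scales, while Ezh2 and Rnf2 cross 0 under equal totals.

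The accessory PRC2 genes were not called in any case. Jarid2 (chromosome 13, 44826142 to 45017012, mm9), whose product defines the PRC2.2 form and stimulates the enzyme, stood at 91.9 (WT) and 99.3 FPKM (KO) per the authors' deposited table (log2 fold change 0.11, q = 0.563). Its ratio to Suz12 was 0.626 in WT and 0.627 in KO. Mtf2 (chromosome 5, 108494692 to 108538238, mm9), a Polycomb-like protein of the PRC2.1 form that binds CpG-rich DNA, stood at 111 and 92.3 FPKM per the authors' deposited table (-0.27, q = 0.139), with an interval from -0.57 to 0.04. The fold changes of Jarid2 and Mtf2 differed by 0.38, with an interval from -0.05 to 0.81, which includes 0, and by -0.10 against genes of like transcript length. Phf19 (chromosome 2, 34749274 to 34769496, mm9), another Polycomb-like gene, was far less abundant, at 5.24 and 5.48 FPKM per the authors' deposited table (0.06, q = 0.791). Mtf2 supplied 93.9% of the summed FPKM of the Polycomb-like genes Mtf2, Phf19 and Phf1 in WT and 92.5% in KO, and Phf19 supplied 4.43% and 5.48%.

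Of the PRC1 genes, one was called. Rnf2 (chromosome 1, 153316535 to 153347953, mm9), the main ubiquitin ligase of PRC1 in ES cells, fell from 76.6 to 55.1 FPKM per the authors' deposited table, to 71.9% of WT (log2 fold change -0.48, q = 0.00617), with an interval from -0.78 to -0.17, a direction that flips under equal totals and against its level decile (0.03). Its paralog Ring1 (chromosome 17, 34157736 to 34161625, mm9) was the least abundant of the 10, at 3.25 and 2.51 FPKM per the authors' deposited table (-0.37, q = 0.123), with an interval from -0.78 to 0.04. The fold changes of the paralogs (Ring1 minus Rnf2) differed by 0.10, with an interval from -0.41 to 0.61, and by -0.63 against their level deciles. Ring1 made up 4.07% of their summed FPKM in WT and 4.36% in KO. Cbx7 (chromosome 15, 79746236 to 79763076, mm9), the main chromobox gene of ES cells, stood at 48.4 and 46.5 FPKM per the authors' deposited table (-0.06, q = 0.775).

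In order of level, WT ran Eed, Suz12, Ezh2, Mtf2, Jarid2, Rnf2, Cbx7, Ezh1, Phf19 and Ring1 per the authors' deposited table. In KO the order began with Suz12, Jarid2, Eed, Mtf2 and Ezh2, and the other 5 kept their places. Whether neighbours in either order differ beyond the spread of libraries cannot be read from 1 value per condition. None of the 10 shares its region with another row of the table.

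**Figure D3:**
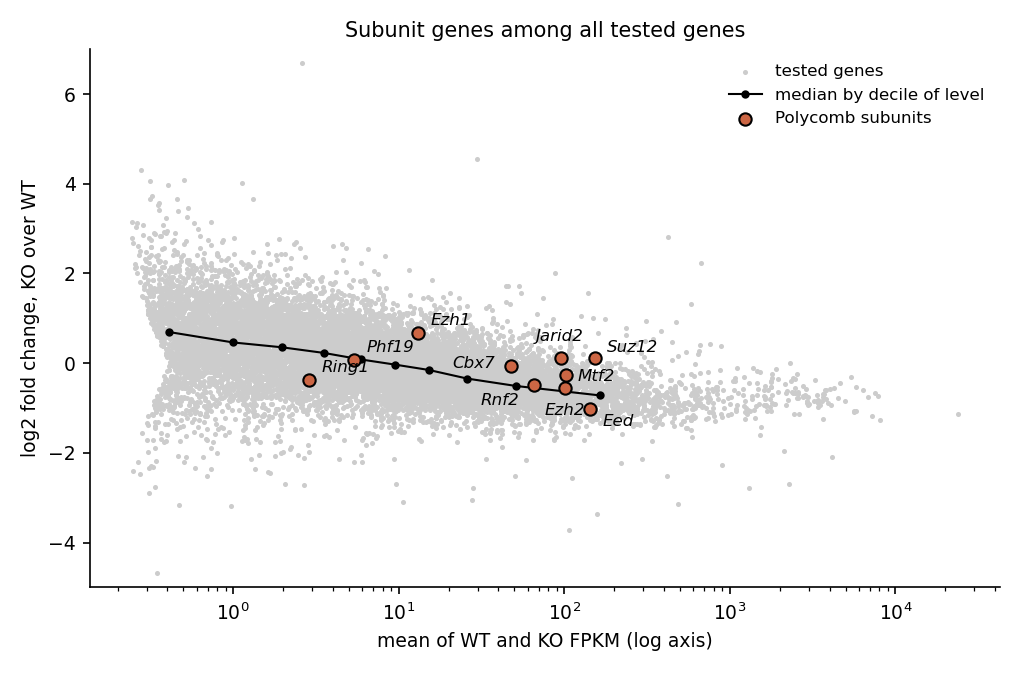
Log2 fold change of KO over WT against mean FPKM (log axis) for all tested genes with a finite value (grey), with the median of each decile by level (line) and the 10 genes (red). Ezh1, Suz12 and Jarid2 lie well above the line, while Eed and Ring1 lie below it.

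Of the 10 genes, 7 lay above the median of their level decile, the exceptions being Eed, Phf19 and Ring1. Against genes of like transcript length, a comparison added after the data were seen, 3 of the 10 lay above, namely Ezh1, Suz12 and Phf19. Length moved with the fold changes of the 10, since the longest transcript has 2067 bases for Eed, 2552 for Ring1 and 2787 for Ezh2, 4207 for Ezh1 and 8353 for Jarid2. Spearman's rho between fold change and length was 0.82 over these 10 genes, which share the same libraries, and 0.30 across all tested genes. Ezh1 stood at 0.72, Ezh2 at -0.44 and Eed at -0.74 after the median of their length decile was taken away. So centred, the difference of Suz12 and Eed went from 1.13 to 0.77, and that of Suz12 and Ezh2 from 0.67 to 0.47. That of Cbx7 and Rnf2 went from 0.42 to 0.13, while that of Ezh1 and Ezh2 went from 1.24 to 1.15. The difference of Ring1 and Rnf2 grew from 0.10 to 0.22. The part of length in these differences was not tested further.

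**Figure D4:**
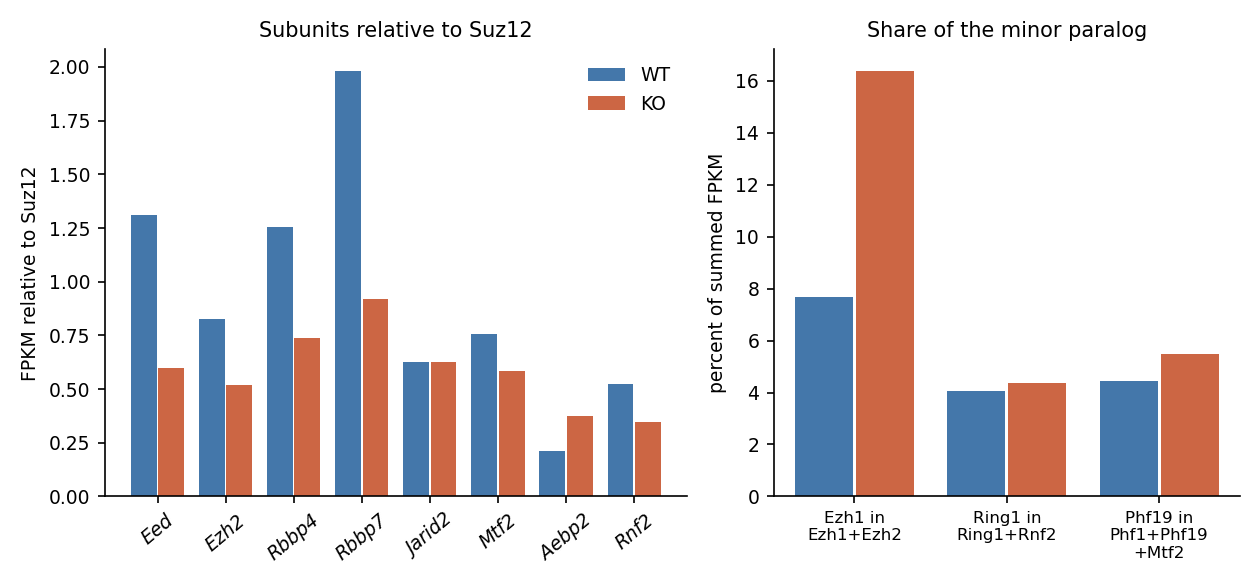
Left, FPKM of PRC2 genes and Rnf2 divided by that of Suz12 in the same condition, for WT (blue) and KO (red); right, the share of the less abundant paralog in the summed FPKM. The ratio of Eed drops from 1.31 to 0.596 and the share of Ezh1 climbs from 7.69% to 16.4%, while the share of Ring1 goes from 4.07% to 4.36%.

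The other PRC2 genes were called in both directions, like the core. Of 7 tested, 3 were called lower, 1 higher and 3 not called (median 0.06). The 57.1% called stand beside 50.8% of all tested genes, with 28.4% called lower and 22.4% higher. The histone chaperone genes Rbbp7 and Rbbp4, whose products serve several chromatin complexes, fell from 291 to 145.6 and from 184 to 117 FPKM per the authors' deposited table (log2 fold changes -0.9995 and -0.66). Under equal totals Rbbp7 stood at -0.35 and Rbbp4 at -0.0036, Rbbp4 turned to 0.06 against its level decile, and each shares its region with another gene. Epop, a PRC2.1 subunit listed under an older symbol, fell from 193 to 96.3 FPKM (-1.003) per the authors' deposited table, and remained lower under equal totals (-0.35). Aebp2, which with Jarid2 forms PRC2.2, rose from 31.1 to 59.4 FPKM per the authors' deposited table (0.93, q = 0.00056). The ratio of Aebp2 to Suz12 went from 0.212 to 0.375, the opposite course to Eed.

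Canonical PRC1 genes, those that work with the CBX readers, were called in both directions. Of 10 tested genes, 3 were called higher, 1 lower and 6 not called (median 0.24), and 8 lay above the median of their level decile. The share called, 40%, was below the 50.8% of all tested genes, with 22.4% called higher and 28.4% lower. Scml2, a sex comb on midleg-like gene on the X chromosome, rose from 2.74 to 11.5 FPKM per the authors' deposited table, 4.18-fold. Phc3, a polyhomeotic gene, rose from 1.15 to 2.11 FPKM, and the chromobox gene Cbx8 from 0.420 to 0.829 FPKM, both per the authors' deposited table. In their level deciles, 3 and 1, 39.6% and 41.3% of genes were called higher. Phc1, a paralog of Phc3, at 116 (WT) and 90.0 FPKM (KO) per the authors' deposited table, was called lower (-0.37, q = 0.0316), which turns to 0.28 under equal totals.

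Variant PRC1 genes, which act without CBX readers, were called in each direction alike. Of 15 tested, 3 were called higher, 3 lower and 9 not called (median 0.05). Here too the share called was 40%, beside 50.8% of all tested genes, with 22.4% called higher and 28.4% lower. Pcgf6, of the PRC1.6 form that represses germline genes in ES cells, fell from 73.4 to 39.4 FPKM per the authors' deposited table (-0.90, and -0.24 under equal totals). Pcgf1 and Yaf2 were called lower at -0.56 and -0.43 per the authors' deposited table, and turned to 0.10 and 0.22 under equal totals. Against their level deciles Pcgf1 and Yaf2 stayed lower, at -0.40 and -0.51, and against genes of like transcript length they stood at -0.092 and -0.14. Bcorl1 of the PRC1.1 form rose from 0.916 to 2.60, and Pcgf3 from 6.60 to 12.3 FPKM per the authors' deposited table. Mga, the DNA-binding partner in PRC1.6, rose from 14.2 to 19.2 FPKM per the authors' deposited table. Against genes of like transcript length, Mga stood at -0.0045, Pcgf3 at 0.47 and Bcorl1 at 1.07. Against their level deciles the 3 genes stood at 0.58, 0.93 and 1.15. Among the 6 PCGF genes, the share of Pcgf6 in the summed FPKM went from 50.6% to 37.8%, and that of Pcgf3 from 4.56% to 11.8%. Pcgf6 and Pcgf3 lie in level deciles 9 and 6 and in length deciles 5 and 10, and neither trend was taken out of these shares.

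Of the genes whose products remove the Polycomb marks, 7 were tested and 1 was called (14.3%, beside 50.8% of all tested genes). Kdm6b, an H3K27 demethylase gene, rose from 2.04 to 5.37 FPKM per the authors' deposited table, 2.63-fold (log2 fold change 1.40, q = 0.000206). It stood at 1.17 against its level decile, where 33.3% of genes were called higher, and at 0.96 against genes of like transcript length. Its paralog Kdm6a stood at 11.4 and 11.8 FPKM per the authors' deposited table (0.05, q = 0.803). Bap1, the H2A deubiquitinase gene, was not called either, at 25.4 and 22.8 FPKM per the authors' deposited table (-0.15, q = 0.446).

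**Figure D5:**
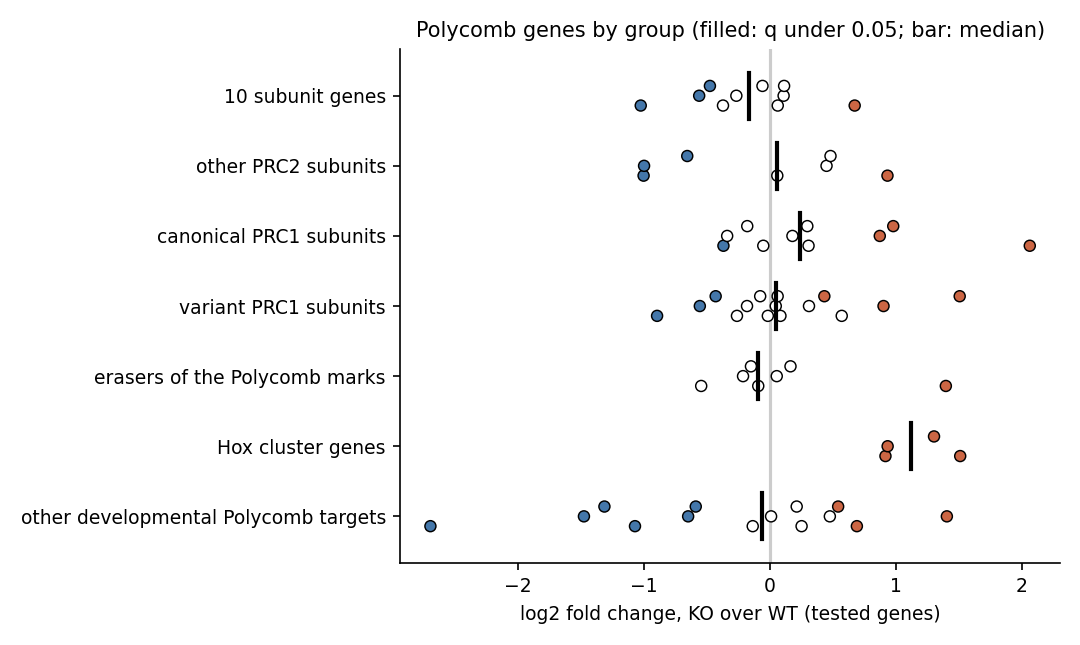
Log2 fold change of KO over WT for the tested genes of each group (points, red where called higher, blue where called lower, white where not called), with the median of the group (bar). The 10 subunit genes and the variant PRC1 genes spread to both sides of 0, and 35 of the 39 Hox genes are absent because they were not tested.

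Genes that Polycomb complexes silence in ES cells stayed at low levels in both conditions. All 39 Hox cluster genes lay below 1 FPKM in WT and in KO per the authors' deposited table. Of these, 35 were not tested, and the 4 that were tested were called higher, where 41.3% of genes in the lowest level decile were called higher too. Being tested depends on level, so this count speaks only of those 4. Hoxc13 rose from 0.344 to 0.850 FPKM and Hoxb13 from 0.269 to 0.767 FPKM per the authors' deposited table. Of the 31 untested Hox genes above 0 in either condition, 26 had the larger value in KO (83.9%), beside 73.7% of all untested genes above 0.

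Other developmental targets moved to both sides. Of 46 genes, 14 were tested, of which 6 were called lower, 3 higher and 5 not called (median -0.06), and 36 lay below 1 FPKM in both conditions. Beside these counts, 28.4% of all tested genes were called lower and 22.4% higher. The 14 lay mostly at low levels, with a median of 1.22 for their mean FPKM. In level deciles 1 to 3, 5.49% to 8.69% of genes were called lower and 39.6% to 41.3% higher. Against their level deciles the median of the 14 was -0.42, and 4 lay above. Pax6, a regulator of eye and neural development, fell from 3.58 to 0.552 FPKM, and the oligodendrocyte regulator Olig2 from 3.45 to 1.24 FPKM per the authors' deposited table. The region given for Pax6 overlaps those of Paupar and the antisense gene Pax6os1, and no source used here says whether their reads were kept apart. Sox7, an endoderm gene, fell from 0.999 to 0.475 FPKM per the authors' deposited table. Hand1, a trophoblast and mesoderm gene, rose from 0.449 to 1.19 FPKM, and Eomes and Gata4 were called higher at 0.54 and 0.69 per the authors' deposited table, of which Gata4 lay at its level decile's median (-0.0027 from it). Among the other calls, Neurog1 (-1.31) remained lower under equal totals, while Neurod1 (-0.59) turned to 0.06. Against their level deciles both were lower, Neurog1 at -2.01 and Neurod1 at -1.05. The cell cycle inhibitor gene Cdkn2a, a Polycomb target in many cell types, stood at 12.1 and 14.4 FPKM per the authors' deposited table and was not called (0.25, q = 0.284).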

How the data were processed

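Total RNA libraries were made by a strand-specific messenger RNA protocol, per the labels' protocols, and aligned with TopHat2 to mm9, per the submitters' processing notes. No source used here gives the gene annotation or program versions. The only table has the layout of a Cuffdiff comparison, per the file headers, with FPKM for WT and KO computed by the authors over libraries, and with the authors' log2 fold change, test statistic (a score), p-value and q-value. The deposited q-value matched a Benjamini-Hochberg adjustment over all tested genes to within 5.18e-07. No test was run anew. A deposited q under 0.05 counted as a call.

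Level deciles were formed over 14039 tested genes with a finite fold change. SEs were read from p as described (the ratio of the normal quantile of p to the deposited statistic had a median of 1.64, 5th to 95th percentile 1.51 to 1.68, over 8873 genes with p between 0.001 and 0.9). For most of these genes, SEs read from the statistic would be larger by that ratio, and the intervals wider. Transcript length is taken from GENCODE M21, the longest annotated for each symbol (99.2% found). Centring on level, the Benjamini-Hochberg adjustment and the SE step were checked on simulated data, while length centring and ratios were not. The simulated p was built from a normal SE, so that check covers the arithmetic and cannot test this reading of the deposited p. The members, lists and rule for named genes (all 10 members, and up to 3 called genes per list and direction by smallest q) were chosen with earlier results of these data known. Neurog1, Neurod1, Kdm6a, Bap1 and Cdkn2a were named after their values were seen. Values of a few listed genes are not reported here. Promoter words are a description. A planned comparison of protein sequences was not made here. Python 3.11.15, NumPy 2.4.6, pandas 2.3.3, SciPy 1.17.1 and Matplotlib 3.10.9 were used.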

Additional observations from a re-analysis of the deposited data

How the results depend on the processing

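For the 10 subunit genes, 1 was called higher and 3 lower at q under 0.05, and the counts were the same at q under 0.01, at q under 0.1, with a recomputed adjustment and after centring by transcript length. A threshold of 1.5-fold left 1 lower (Eed). With equal totals, and likewise against the level decile, the 4 calls split by sign into 3 higher and 1 lower. Counts after a shift or centring keep the deposited q and take only the sign of the new fold change. The new directions were therefore not tested. The median of -0.16 became 0.49 with equal totals and 0.30 against the level decile. Signs turned with equal totals for Ezh2 (0.091), Rnf2 (0.18), Mtf2 (0.39), Ring1 (0.28) and Cbx7 (0.59), and against the level decile for Ezh2 (0.16), Rnf2 (0.032), Mtf2 (0.45), Cbx7 (0.45) and Phf19 (-0.021). Jarid2 turned to -0.32 against its length decile. Differences between members were centred too, a step added after the data were seen: against the level decile that of Ring1 and Rnf2 turned from 0.10 to -0.63 and that of Phf19 and Mtf2 from 0.33 to -0.47, and against the length decile that of Jarid2 and Mtf2 turned from 0.38 to -0.10. Against the length decile, those of Suz12 and Eed and of Cbx7 and Rnf2 fell to 0.77 and 0.13. Against the level decile, that of Ezh1 and Ezh2 fell to 0.67. Ezh1, Eed and Suz12 kept their sign under each of these scalings and a pseudocount of 1. Of 101 counts and medians recomputed for the 6 other lists, 69 stayed within the limits set (1.5 times for a count, 0.1 and no change of sign for a log2 median) and 32 did not, 10 of them under equal totals. No paired analysis was possible because the table holds 1 value per condition, and for the same reason no library could be left out. The cause of these changes was not tested beyond the scaling itself. Depth is unknown, so how precisely the low Hox values were measured cannot be given.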
